A study of Mus musculus with 5 samples.

Results

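The 10 genes described here, Fos, Fosb, Fosl2, Jun, Junb, Jund, Egr1, Ier2, Klf6 and Myc, encode nuclear factors. Most of these genes are switched on early after a growth factor, cytokine or stress, while Jund is more steadily expressed. The 10 genes were chosen by name, as the array rows whose gene symbol was exactly one of these. All 10 of 10 were found among 19938 genes measured, each with 1 probe set. Transcript levels came from 5 Affymetrix gene arrays of liver from male mice about 10 months old. The 2 control livers, normal tissue, came from mice carrying 1 floxed and 1 wild-type copy of Hdac3 together with the AlbCre transgene (Hdac3FL/+AlbCre+). The 3 tumours came from mice carrying 1 floxed and 1 null copy and the same transgene (Hdac3FL/-AlbCre+). AlbCre is Cre recombinase under the albumin promoter, which is active in hepatocytes, so the floxed allele is lost mainly there in both groups. Control hepatocytes therefore keep 1 functional copy of Hdac3, a histone deacetylase of nuclear corepressor complexes, and liver cells in which Cre is not active keep their floxed copy. Every null sample was tumour and every control was normal tissue, so genotype and tumour cannot be told apart. The arrays within a group are labelled as biological replicates, and the labels say no more of litters, time of day or how the tumours were chosen, so p-values measure the spread between these arrays.

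AP-1 is a dimer of leucine zipper proteins. Jun proteins bind DNA as pairs with one another or, more stably, with Fos proteins, while Fos proteins need a Jun partner. Egr1 is a zinc finger factor induced through MAP kinases and serum response factor, Klf6 is a zinc finger factor of the Krüppel-like family, Ier2 is a small nuclear protein of the same early wave, and Myc pairs with Max to drive genes of growth. In liver most of these genes are known for a short burst in the first hours after partial hepatectomy or injury. Jun is known to be needed for normal liver regeneration.

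The promoter windows of Jun, Klf6 and Fos are shown because Jun and Klf6 rose in the tumours while Fos, the usual partner of Jun, did not pass the test of that comparison. They are RefSeq sequences of GRCm38.p6, from 250 bases before to 50 bases after the annotated transcription start, 5′ to 3′ on the strand of the gene. Capitals mark every match to the motifs searched on both strands. The Jun window is chr4:95052173-95052472, minus strand, the Klf6 window chr13:5861239-5861538, plus strand, and the Fos window chr12:85473640-85473939, plus strand.

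Jun: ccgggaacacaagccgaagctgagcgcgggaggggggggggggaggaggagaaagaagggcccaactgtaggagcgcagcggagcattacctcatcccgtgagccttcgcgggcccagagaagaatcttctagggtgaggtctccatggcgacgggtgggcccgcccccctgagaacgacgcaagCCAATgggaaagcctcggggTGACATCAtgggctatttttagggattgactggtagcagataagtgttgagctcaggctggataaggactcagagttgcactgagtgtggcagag
Klf6: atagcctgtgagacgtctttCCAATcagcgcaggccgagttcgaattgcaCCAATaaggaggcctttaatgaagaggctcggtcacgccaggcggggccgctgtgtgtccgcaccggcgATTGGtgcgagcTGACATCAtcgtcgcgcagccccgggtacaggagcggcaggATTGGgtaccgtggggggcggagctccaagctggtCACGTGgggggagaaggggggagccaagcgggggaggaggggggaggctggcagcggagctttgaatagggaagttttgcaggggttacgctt
Fos: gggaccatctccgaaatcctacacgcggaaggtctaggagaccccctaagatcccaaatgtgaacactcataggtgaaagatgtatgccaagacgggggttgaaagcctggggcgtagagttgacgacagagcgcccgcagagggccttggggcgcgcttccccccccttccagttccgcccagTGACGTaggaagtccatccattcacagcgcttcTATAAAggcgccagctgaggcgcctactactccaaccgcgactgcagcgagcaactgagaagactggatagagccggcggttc

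Windows were found for 7 of the 10 genes, those of the Fos and Jun families and Klf6. Ier2 and Myc had no entry. Windows on chromosome 18, where Egr1 lies, were left out of the search of the 10 genes, so none is given for Egr1. The motifs were TGANTCA (the AP-1 site), TGACGTCA (the cyclic AMP response element), GCGNGGGCG (the EGR site), CACGTG (the E-box bound by Myc and Max), the CArG box of serum response factor, CCAAT and TATAAA. After the windows had been read, TGACATCA and TGACGT were added, the second of which lies within TGACGTCA. Because these 2 were picked from the windows themselves, their shares below are a description only. The Jun window holds TGACATCA, an AP-1 type site, from position -45 counted from the transcription start, and the Klf6 window holds the same letters from position -119. That sequence was in 3.62% of all 32851 windows of this length. Fos has TGACGT at position -66, found in 7.51% of windows, and a TATAAA at -33, found in 13.6%. The E-box at -43 of Klf6 was shared by 7.15% of windows, and CCAAT, which occurs 4 times in Klf6 and 1 time each in Jun and Junb, by 37.4%. GCGNGGGCG was found in the Fosb and Fosl2 windows and in 5.55% of all. None of the 7 windows holds TGANTCA (7.81% of all windows), TGACGTCA (1.79%) or a CArG box (1.63%), which says only that these letters are not in these 300 bases. Junb has 1 TATAAA, and Jund matched no motif.

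Jun, Klf6, Myc and Egr1 rose in the tumours, and none of the 10 genes fell. The rises were 5.17-fold for Klf6, 4.11-fold for Myc, 3.78-fold for Jun and 1.82-fold for Egr1. By limma at an adjusted p under 0.05, 4 of the 10 were called risen and 0 fallen, where 5.6% of all 19938 genes were risen and 4.96% fallen (10.6% in either direction). At an unadjusted limma p under 0.05, 7 of the 10 were higher and 0 lower, where 12.9% of all genes were higher and 12.3% lower (25.2% in either direction). The tumours all lay above both controls for 7 of the 10 genes, against 21.1% of all genes, and all below for 0, against 23.1% (44.2% in either direction). The median tumour minus control difference was 0.83 log2 units over the 10 genes and -0.02 over all genes. Against the control mean, the 10 genes had medians of 0.85, 0.69 and 0.81 in tumours 1, 2 and 3, and all genes -0.04, -0.04 and 0.03. Both group means of each of the 10 lay above the lower quartile of the arrays (4.34 in controls and 4.31 in tumours). Under that line a signal was not taken as above background, but a value above it was not shown to be detected. Array medians lay between 5.66 and 5.77, with Fosb (means of 5.02 and 5.29) below them and the control mean of Egr1 (5.73) among them. In whole tissue, more cells of a type and more RNA per cell cannot be told apart, and macrophage markers moved in the same tumours, by a median of 1.83.

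**Figure D1:**
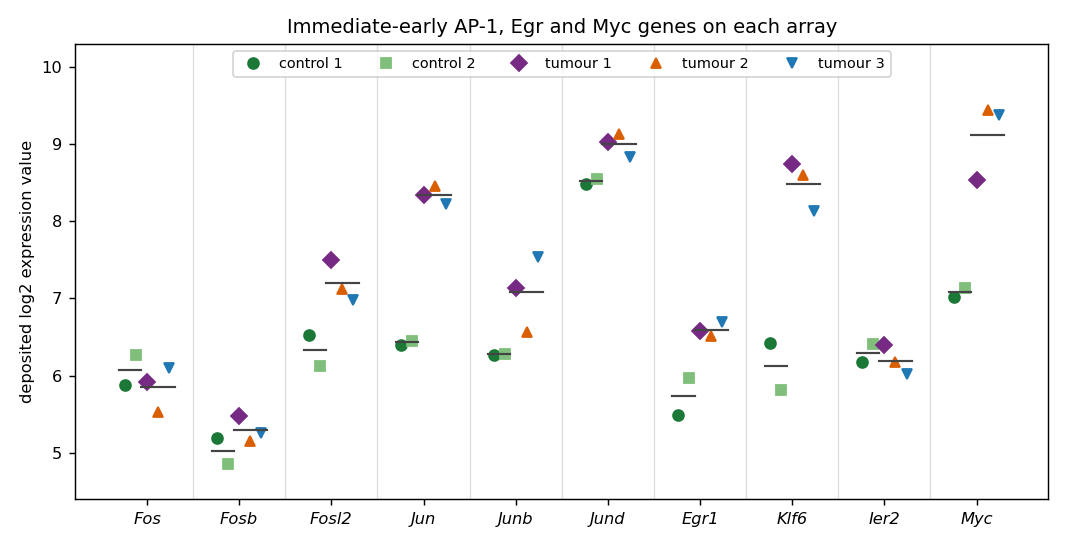
Deposited log2 expression values (vertical axis) of the 10 genes on each of the 5 arrays. Each point is 1 array and short bars are group means; the controls and tumours are well apart for Jun, Klf6 and Myc and overlap for Fos, Fosb and Ier2.

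Jun, the AP-1 subunit that can act alone or with Fos proteins, had log2 values of 6.40 and 6.45 in controls 1 and 2 and of 8.34, 8.46 and 8.23 in tumours 1, 2 and 3 (probe set 10514466). The arrays of each group lay close together, with SDs of 0.04 (n = 2) and 0.12 (n = 3), and the lowest tumour was 1.78 above the higher control. The log2 difference was 1.92 (SE 0.13, 95% confidence interval 1.60 to 2.23, limma adjusted p = 0.00169), larger in size than that of 97.2% of genes. Junb, which often opposes Jun on growth genes, was at 6.27 and 6.28 in the controls and at 7.13, 6.57 and 7.54 in the tumours. All tumours were higher, tumour 3 most and tumour 2 least, but their spread (SD 0.48, n = 3) left the difference of 0.80 (SE 0.28, interval 0.12 to 1.49) above the threshold (limma adjusted p = 0.14). Jund, the steadily expressed member of the family, read 8.49 and 8.55 in controls 1 and 2, and 9.03, 9.13 and 8.84 in tumours 1, 2 and 3. Here too the groups did not overlap, by 0.29 log2 units, and the difference of 0.48 (SE 0.14) did not pass (limma adjusted p = 0.0859).

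Within each array, the rise of Jun exceeded that of its relatives. With the control mean set to 0, Jun minus Jund stood at 1.41, 1.43 and 1.48 in tumours 1, 2 and 3 and at 0.01 and -0.01 in the controls. Jun minus Junb stood at 1.06, 1.74 and 0.54 in the tumours and at -0.02 and 0.02 in the controls. The groups did not overlap for either pair. An exact two-sided permutation test over the 5 arrays gave p = 0.1 for Jun against Jund and 0.2 for Jun against Junb, among 6 pairs tested within the Jun and Fos families. With 2 arrays against 3 this test cannot go below 0.1, so it cannot reach 0.05, before or after adjustment for the 6 pairs. Junb against Jund overlapped between groups (change 0.32, exact permutation p = 0.6).

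Fos, the founding member of its family, did not pass the test. It read 5.88 and 6.26 in controls 1 and 2, and 5.91, 5.53 and 6.10 in tumours 1, 2 and 3. Tumours 1 and 3 lay between the controls and tumour 2 below both, and the difference was -0.22 (SE 0.21, interval -0.75 to 0.30, limma adjusted p = 0.60). The upper end of that interval lies below the lower end for Jun, 1.60. Fosb, its close relative, had 5.19 and 4.85 in the controls and 5.48, 5.15 and 5.25 in the tumours. The groups overlapped, with a difference of 0.27 (interval -0.15 to 0.68, limma adjusted p = 0.401). Fosl2, which encodes Fra-2, a more lasting member that lacks the transactivation domain of Fos, stood at 6.52 and 6.13 in the controls and at 7.50, 7.12 and 6.98 in the tumours. All 3 tumours were higher, tumour 1 most, and the difference of 0.88 (SE 0.21, interval 0.37 to 1.38) lay just outside the threshold (limma adjusted p = 0.0518). Of 14 other settings 4 called it, with limma adjusted p between 0.0163 and 0.324 over all 14. Within arrays, Fos minus Fosl2 was lower in every tumour than in both controls, at -1.34, -1.33 and -0.63 against -0.38 and 0.38 (change -1.10, exact permutation p = 0.2). Fosb minus Fosl2 was also lower in all 3, at -0.72, -0.66 and -0.43 against -0.02 and 0.02 (change -0.61, exact permutation p = 0.1). Fos minus Fosb overlapped (change -0.49, exact permutation p = 0.3).

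**Figure D2:**
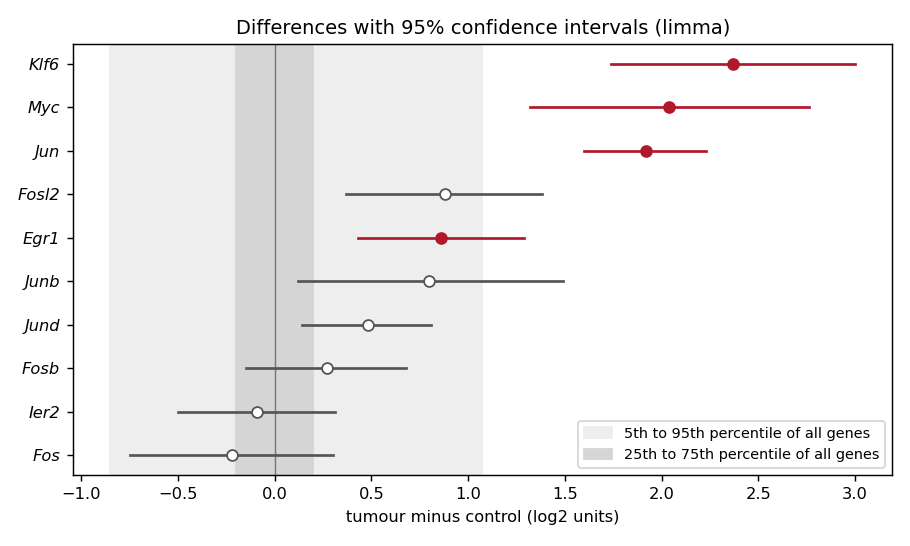
Tumour minus control differences in log2 units (horizontal axis) with limma 95% confidence intervals, filled red where the adjusted p was under 0.05. The grey bands hold the middle 50% (25th to 75th percentile, -0.20 to 0.20) and the 5th to 95th percentile (-0.85 to 1.07) of all 19938 genes; the intervals of Klf6, Myc and Jun lie wholly above the wider band.

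Egr1, the zinc finger factor that AP-1 genes are commonly induced with, had log2 values of 5.49 and 5.97 in the controls and 6.58, 6.51 and 6.69 in the tumours (probe set 10454782). The tumours differed little among themselves (SD 0.09, n = 3), less than the controls (SD 0.34, n = 2), and lay at least 0.54 above them. The difference was 0.86 (SE 0.18, interval 0.43 to 1.29, limma adjusted p = 0.0341). This call was the weakest of the 4: it was lost without control 1 (limma adjusted p = 0.205), control 2 (0.0935), tumour 1 (0.0652) or tumour 2 (0.0762), and with the replicate number as a block (0.0541). It held in 7 of 14 other settings, with limma adjusted p between 0.0238 and 0.205, and the difference stayed positive in all 14, at 0.63 to 1.10. Klf6, studied in injured liver and as a growth suppressor in liver cancer, had the largest difference. It stood at 6.42 and 5.81 in the controls and at 8.74, 8.60 and 8.14 in the tumours (probe set 10403352), a difference of 2.37 (SE 0.26, interval 1.74 to 3.0, limma adjusted p = 0.00577). The lowest tumour was 1.71 above the higher control, and the rise of Klf6 ranked 168 in size among all genes. Ier2 did not pass the test. It read 6.17 and 6.41 in controls 1 and 2, and 6.40, 6.17 and 6.02 in tumours 1, 2 and 3, so the groups overlapped, and the difference of -0.09 (interval -0.50 to 0.31, limma adjusted p = 0.794) turned to 0.029 without control 2.

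Myc, the growth factor-responsive partner of Max, stood at 7.02 and 7.14 in the controls and at 8.53, 9.44 and 9.38 in tumours 1, 2 and 3 (probe set 10424400). Tumour 1 was 0.91 below tumour 2 and still 1.39 above the higher control. The difference was 2.04 (SE 0.29, interval 1.32 to 2.76, limma adjusted p = 0.0129). The 3 tumours thus ranked differently for the genes that rose: tumour 1 was lowest for Myc (1.45 above the control mean, against 2.36 and 2.30) and highest for Klf6 (2.62, against 2.48 and 2.02). Jun was at 1.92, 2.03 and 1.80, and Egr1 at 0.85, 0.78 and 0.96. Over the 10 genes, tumour 1 held the highest tumour value for 4 and tumours 2 and 3 for 3 each.

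**Figure D3:**
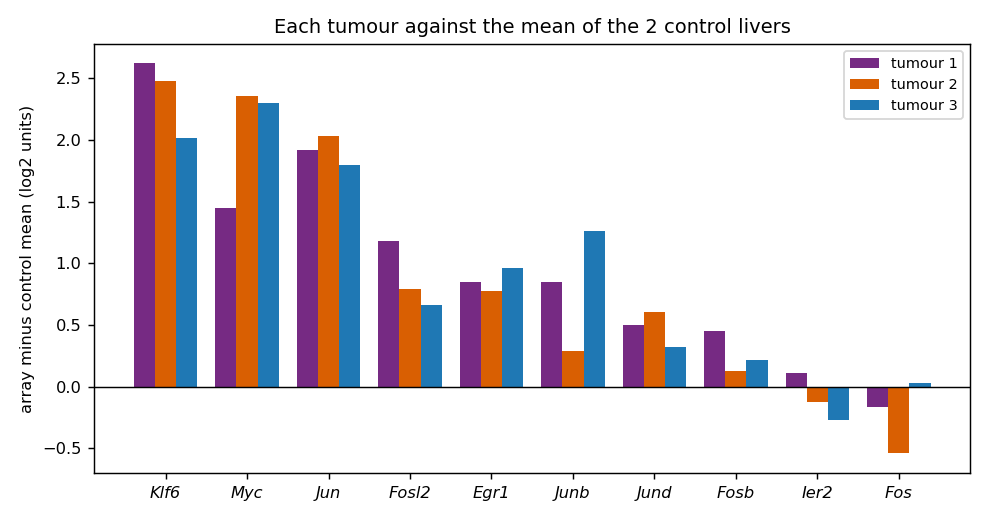
Log2 value of each tumour minus the mean of the 2 controls (vertical axis, log2 units), 1 bar per tumour, genes ordered by mean difference. The bars of Klf6, Myc and Jun all exceed 1.4, while those of Fos and Ier2 lie on both sides of 0.

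How far the calls rested on single arrays differed between genes. Leaving out a control leaves 1 control, and most calls over all genes were then lost. Such a loss, here and in the lists below, is therefore not particular to a gene. Jun kept its call with any of the 5 arrays left out, with limma adjusted p from 0.00121 to 0.0472, the highest being without control 2; over all 14 settings the highest was 0.0608, without moderation of the spread. Klf6 lost it without control 1 (limma adjusted p = 0.0521) or control 2 (0.0821), and Myc without control 1 (0.14) or control 2 (0.136), where the remaining control takes its spread from the tumours. Over the 14 settings their adjusted p ranged from 0.00175 to 0.119 and from 0.00254 to 0.154. Their differences stayed between 2.07 and 2.68 for Klf6 and between 1.88 and 2.33 for Myc over all 14 settings. Junb, Fosl2 and Jund gained a call when 1 tumour was left out: Junb without tumour 2 (limma adjusted p = 0.0443), and Fosl2 (0.0309) and Jund (0.043) without tumour 3. Over the 14 settings, limma adjusted p for Junb and Jund ranged from 0.0443 to 0.446 and from 0.0297 to 0.375.

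**Figure D4:**
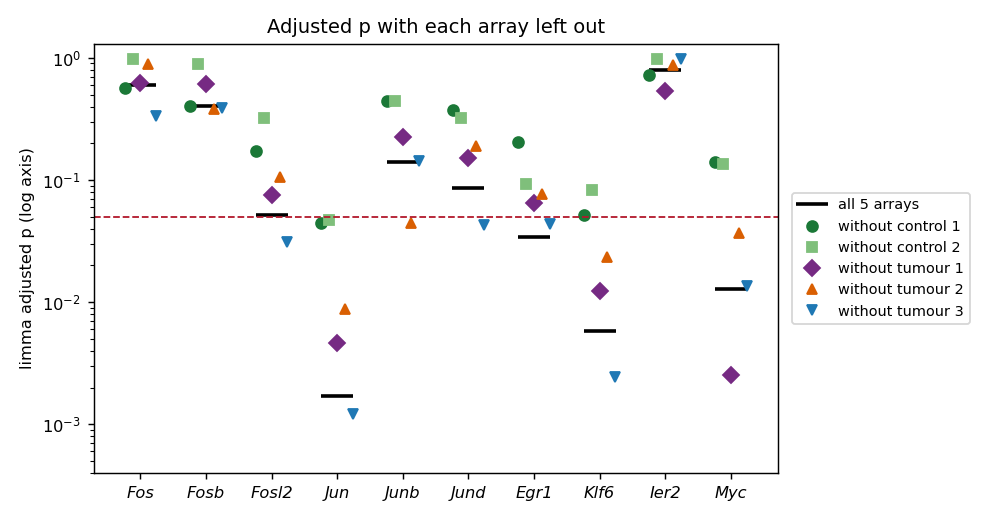
Limma adjusted p on a log axis for the 10 genes with all 5 arrays (black bars) and with each array left out in turn (symbols). The dashed red line is 0.05; Jun alone among the 10 stays under it in all 5 cases, from 0.00121 to 0.0472.

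For Jun, Egr1, Myc and Fos, the 3 genes with the nearest profile over the 5 arrays were found by the root mean square distance of log2 values centred on the control mean. Nearest to Jun were Tmem43 (distance 0.070), Litaf (0.090) and Plpp2 (0.107), which rose by 1.87, 1.87 and 2.02. Nearest to Myc were Cyria (0.105), Sccpdh (0.128) and Slc1a1 (0.130), all lower in tumour 1 than in tumours 2 and 3. For Egr1 they were Rhbdd1 (0.091), Clasp1 (0.094) and Lmo2 (0.096), and for Fos Gm9833 (0.034), Leng1 (0.049) and Olfr392 (0.057), of which Gm9833 and Olfr392 lay under the lower quartile in both groups and were not taken as above background. With 5 arrays, many of 19938 genes can come this close, and the distances are a description only.

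In the rest of the AP-1 family, Atf3 was the only gene called. Of 12 measured, 1 rose (8.33%, against 5.6% of all genes) and 0 fell by limma (3 higher and 1 lower at an unadjusted p under 0.05, which 25.2% of all genes passed in either direction), and the median difference was 0.25. Atf3, a stress-induced factor that pairs with Jun, stood at 5.45 and 5.07 in controls 1 and 2 and rose to 7.69, 8.52 and 8.86 in tumours 1, 2 and 3, a difference of 3.10 (SE 0.35, limma adjusted p = 0.00665), larger than that of any of the 10 genes. The small Maf proteins Mafk (0.80, limma adjusted p = 0.0622) and Maff (1.58, 0.101), partners of other leucine zipper factors, were higher in every tumour without passing, as Atf2 was lower (-0.29, 0.197). The Atf3 call was lost without control 1 or control 2 (limma adjusted p = 0.0823 and 0.103), and 2 genes of the family were called without tumour 3.

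Among 41 other immediate-early and delayed-early genes, 7 rose (17.1%, against 5.6% of all genes), with a median of 0.26. The 2 that fell (4.88%) were a share close to that of all genes (4.96%). Btg2, an antiproliferative gene of this wave, stood at 5.91 and 5.24 in controls 1 and 2 and rose to 9.57, 8.97 and 9.09 in the 3 tumours, a difference of 3.63 (limma adjusted p = 0.00224) that kept its call with any array left out. Rhob, a small GTPase, rose by 1.16 (limma adjusted p = 0.00569), the orphan nuclear receptor Nr4a1 by 1.02 (0.00897) and Tiparp, an ADP-ribosyltransferase, by 0.75 (0.026). The 2 that fell, named after their values were seen, were Klf9 (-1.38, limma adjusted p = 0.049) and Id3 (-1.37, 0.0411). Without control 1 or control 2 only 1 of the 7 rises was called, and Rhob, Nr4a1 and Tiparp were lost, Tiparp also without tumour 1 or tumour 2. Without tumour 2, 4 rose and 0 fell. Of 22 feedback inhibitors of the response, 4 rose (18.2%) and 0 fell by limma (7 higher and 1 lower at an unadjusted p under 0.05, against 12.9% and 12.3% of all genes), with a median of 0.29. Dusp6, the phosphatase of ERK, stood at 8.60 and 9.08 in the controls and at 10.49, 10.12 and 10.28 in the tumours, a difference of 1.46 (limma adjusted p = 0.0111). Dusp4 rose by 1.89, Dusp10 by 1.31 and Zfp36l1, which destabilises AU-rich mRNAs, by 0.99 (limma adjusted p = 0.0218, 0.0497 and 0.0147). All 4 were lost without control 1 or control 2, and Dusp10 with any array left out, while 1 gene of the list was called fallen without tumour 1.

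In the MAP kinase and SRF pathway upstream of these promoters, 1 of 22 measured genes rose (4.55%) and 1 fell (4.55%), shares close to those of all genes. Rps6ka3, which encodes the ERK-activated kinase RSK2, rose by 1.40 (limma adjusted p = 0.0109), and Map2k6, a kinase upstream of p38, stood at 6.80 and 7.51 in controls 1 and 2 and fell to 5.49, 5.18 and 5.10 in the 3 tumours, a difference of -1.90 (0.00997). Map2k1 (0.49, limma adjusted p = 0.0597) and Braf (-0.53, 0.0608) did not pass. Rps6ka3 was lost when either control was left out and Map2k6 without control 2, and 2 genes were called risen without tumour 3. The list's median of 0.02 turned to -0.07 after shifting every array to 1 median, which moved the median of all genes from -0.02 to -0.12.

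Among partners and competitors of Myc, Mxi1 was the only gene called. In the MYC, MAX and MXD network 0 of 13 rose and 1 fell by limma (2 higher and 3 lower at an unadjusted p under 0.05, against 12.9% and 12.3% of all genes). Mxi1, a Max-binding repressor that competes with Myc, was at 7.30 and 7.35 in the controls and at 6.68, 6.28 and 6.54 in the tumours, a difference of -0.83 (limma adjusted p = 0.0269) lost without control 1, control 2 or tumour 2. Max was at 0.56 (limma adjusted p = 0.0523), Mlx at -0.51 (0.0815) and Mlxip at 0.38 (0.12). The network's median of 0.01 turned negative after that shift (-0.09) and after a second quantile normalisation (-0.07). Of 33 MYC target genes, 3 rose (9.09%) and 1 fell (3.03%), against 5.6% and 4.96% of all genes. Their median was 0.27, with medians of 0.06, 0.26 and 0.68 in tumours 1, 2 and 3. The transferrin receptor gene Tfrc rose by 1.60 (limma adjusted p = 0.00567), Ccnd2, a D-type cyclin, by 1.05 (0.0114) and Nop58, of ribosome assembly, by 1.60 (0.0384), and the telomerase gene Tert fell by 1.13 (0.0293). None of these 4 calls held without control 1 or control 2, and Tert was also lost without tumour 1 or 2 and Nop58 without tumour 2. Without tumour 1, 6 targets were called risen, and without tumour 3, 2 were called fallen.

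Genes commonly described as AP-1 targets included 14 that rose. They were 14 of 27 measured (51.9%, against 5.6% of all genes), and 0 fell by limma, with a median of 1.34. At an unadjusted limma p under 0.05, 18 were higher and 0 lower, against 12.9% and 12.3% of all genes. The list was chosen with earlier results of these data known, so its share is a description only. Whether AP-1 acts on these genes here was not tested. Mmp12, a matrix metalloproteinase made mainly by macrophages, stood at 5.19 and 5.06 in controls 1 and 2 and rose to 9.60, 9.63 and 9.75 in the 3 tumours, a difference of 4.54 (limma adjusted p = 0.000144). Krt18, a keratin of hepatocytes and bile duct cells, rose by 2.24 (limma adjusted p = 0.00123), the adhesion receptor Cd44 by 2.20 (0.00246) and vimentin (Vim), a filament protein of mesenchymal and immune cells, by 1.92 (0.0047). Mmp12, Krt18 and Cd44 kept their calls with any array left out, Vim was lost when either control was left out, and the number of risen targets was 4 without control 1 and 3 without control 2.

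**Figure D5:**
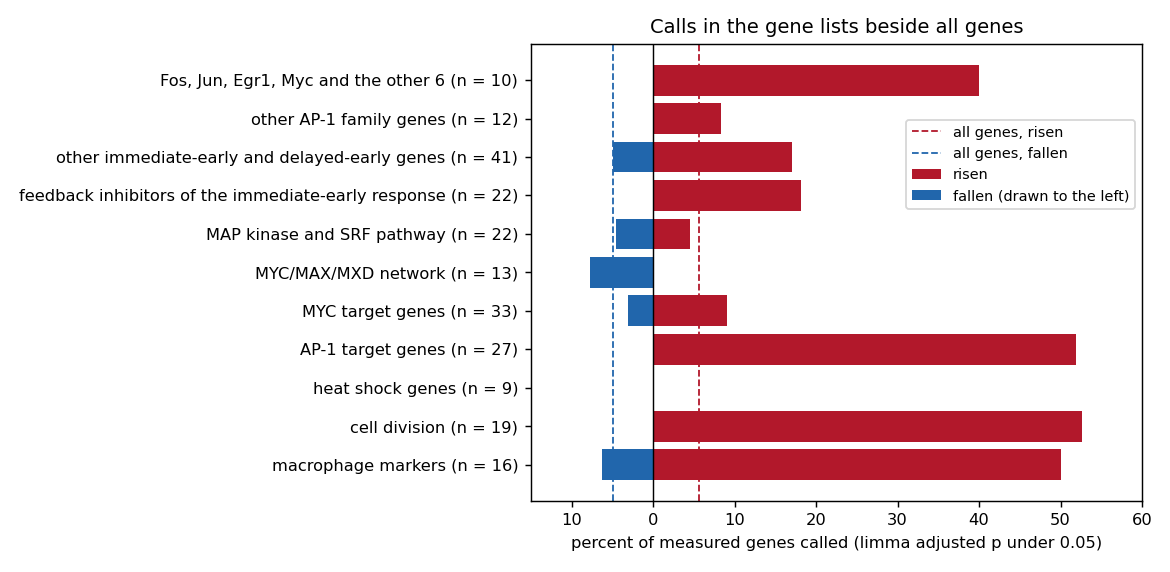
Percent of measured genes called risen (red, right) or fallen (blue, left) by limma at an adjusted p under 0.05 in each list, with the number measured in brackets. Dashed lines are the shares of all 19938 genes, 5.6% risen and 4.96% fallen. AP-1 target genes (51.9%), genes of cell division and macrophage markers reach the highest shares risen. The lists were chosen with earlier results of these data known.

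Several of these genes are also expressed by macrophages, endothelium and mesenchymal cells. Of 16 macrophage markers 8 rose and 1 fell, with a median of 1.83 and a summed level (log2 of the sum of unlogged values) of 10.64 and 11.01 in the controls and 13.03, 12.18 and 12.82 in the tumours. Cd68 rose by 3.02 and Mpeg1 by 2.47, while Cd163 fell by 2.20 (limma adjusted p = 0.00406, 0.00298 and 0.00563). Other markers of this list were not called and differed between tumours 1, 2 and 3. Against the control mean, Clec4f stood at 1.59, -1.32 and -2.66, Vsig4 at 2.39, -0.11 and -2.9, and Cd5l at 2.6, 0.28 and -1.79. None of the 16 lay under the lower quartile in both groups. With either control left out, 0 macrophage markers were called risen. Of 10 endothelial markers 1 rose (10.0%, against 5.6% of all genes), Emcn by 2.11. The mean difference was above 0 for 6 of the 10. Clec4g (-2.29) and Stab2 (-1.03) were lower without passing (limma adjusted p = 0.343 and 0.443). Stab2 was called fallen without tumour 1 (limma adjusted p = 0.0246). The summed level of this list was 11.08 and 11.24 in the controls and 11.98, 11.14 and 10.10 in the tumours. Of 10 stellate cell and fibroblast markers 1 rose (10.0%), Acta2 by 2.44, with a summed level of 11.03 and 11.01 against 11.93, 11.10 and 10.01. The mean difference was above 0 for 7 of these 10. Reln (-1.64), Lrat (-0.96) and Dcn (-0.96) were lower without passing (limma adjusted p = 0.31, 0.466 and 0.599). The Emcn and Acta2 calls were lost when either control was left out, and Emcn also without tumour 1, whereas 3 genes of each of these 2 lists rose without tumour 3. Neutrophil, T and NK cell, B and plasma cell and cholangiocyte markers (8, 8, 6 and 7 measured) had 0 calls by limma. At an unadjusted limma p under 0.05, 1, 2, 1 and 5 were higher and 0 lower, against 12.9% and 12.3% of all genes. Cholangiocyte markers had a median of 0.53, and every tumour lay above both controls for 6 of 7, against 21.1% of all genes. Under the lower quartile in both groups were 3 neutrophil, 3 T and NK and 2 B cell markers. Without tumour 3, 1 neutrophil, 2 T and NK and 3 cholangiocyte markers were called risen. Both measured red blood cell markers were uncalled (1 lower at an unadjusted p under 0.05). Alas2 stood at 9.84 and 9.86 in the controls and at 8.28, 5.83 and 5.84 in the tumours. Its difference of -3.2 (limma adjusted p = 0.0512) was called without tumour 1, while Slc4a1 was at 0.03. The part of other cell types in the levels of Jun, Klf6, Myc and Egr1 was not tested.

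Hepatocyte markers other than Cyp2e1 were at high levels in both groups, with Alb at 12.65 and 12.85 in the controls and 12.77, 12.75 and 12.36 in the tumours. The mean difference was above 0 for 0 of 8 measured, with a median of -0.36. Every tumour lay below both controls for 6 of the 8, against 23.1% of all genes. Of 8 measured hepatocyte markers 1 fell, Ttr by 0.71, a call lost when any array other than tumour 3 was left out, and Cyp2e1 was at 13.06 and 12.98 in the controls and 11.49, 8.87 and 4.10 in the tumours (limma adjusted p = 0.197). The 3 tumours thus differed widely in that marker, with tumour 3 the lowest. Without tumour 3, Jun, Klf6, Myc and Egr1 were all still called. Hdac3 itself was lower in every tumour (difference -1.62, limma adjusted p = 0.00298, or 0.0505 and 0.0663 without control 1 and control 2), measured by a probe set whose place relative to the deleted part was not analysed here. Array medians lay between 5.66 and 5.77.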

How the data were processed

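The authors deposited a table of log2 values, 1 for each probe set on each array, from RNA labelled with a whole-transcript sense kit per the labels' protocols. The submitters' processing notes name GCOS and RMA but give neither a version nor a role. RMA summarises probes on a log2 scale and compresses low and large differences. A genome build was not given in the sources used here. Groups follow the sample titles, which name no batch; 0 columns of other samples were present.

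Of 28853 probe sets, 21789 had 1 symbol in the platform's annotation, 1621 several and 5443 none; the last 2 kinds were not used. For 999 genes with several probe sets the highest-mean one over all 5 arrays was taken, which left 19938 genes. The fit used limma 3.58.1 (lmFit, eBayes; R 4.3.3) with 3 residual and 2.98 prior degrees of freedom, with two-sided p adjusted by Benjamini-Hochberg over all genes. The number of arrays limits the precision. The procedure was tested on simulated data. A call is an adjusted p under 0.05, and "rose" and "fell" mean calls. Klf9 and Id3 were named after their values were seen.

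The genes and the 18 lists (303 entries, 273 measured) were chosen with earlier results of these data known. The text names all 10 genes, for each list up to 4 genes of smallest p, and nearest profiles; Hdac3 was added as a check of the labels and Alb as one of the tissue. Alternatives were 2 other normalisations, a filter on the dimmest 40% of genes, 2 other treatments of probe sets, a variance trend, array weights, a replicate block, no moderation and leaving out each array. Python 3.11.15, pandas 2.3.3 and matplotlib 3.10.9 joined tables and drew figures.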

Additional observations from a re-analysis of the deposited data

How the results depend on the processing

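Over the 14 alternatives, Jun was called in 13, Klf6 and Myc in 11 each, Egr1 in 7, Fosl2 in 4, Jund in 2 and Junb in 1, and Fos, Ier2 and, in the 13 that held it, Fosb in 0; Fosb was left out with the dimmest 40% of genes. The only sign to turn was that of Ier2, which ranged from -0.22 (without control 1) to 0.029 (without control 2). An ordinary test per gene without moderation called 0 of the 10 genes and 18 of all genes, where 4 and 2106 were called otherwise, and array weights called 3252 of all genes. With 1 array left out in turn, 1 to 6 of the 10 genes and 108 to 2719 of all genes were called. Leaving out control 1 gave 129 genes, control 2 gave 108 and tumour 2 gave 1266, and that of the 10 genes was 1 when either control was left out. With arrays shifted to a common median, 949 genes rose and 1275 fell, against 1117 and 989, and the same 4 of the 10 genes were called. Egr1 was lost with quantile normalisation repeated (limma adjusted p = 0.0534). The labels call the arrays biological replicates and do not say that the replicate numbers pair them. The deviations of same-numbered arrays from their group means correlated at 0.004 and -0.013. With 2 controls these deviations mirror each other, so the correlations cannot show or exclude a pairing. With the replicate number as a block, 2376 of all genes and 4 of the 10 were called: Fosl2 was gained (limma adjusted p = 0.0163) and Egr1 lost (0.0541). The cause of these changes was not tested. Most calls over all genes were lost when either of the 2 controls was left out.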

Other observations

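Of 19 measured genes of mitosis and S phase, 10 rose and 0 fell by limma (17 higher and 0 lower at an unadjusted p under 0.05, against 12.9% and 12.3% of all genes), with medians of 0.76, 1.57 and 2.11 in tumours 1, 2 and 3. Mcm6, a subunit of the replicative helicase, stood at 5.92 and 5.55 in the controls and at 7.82, 8.21 and 8.95 in the tumours, and the mitotic kinase gene Cdk1 at 5.61 and 5.31 against 6.59, 7.19 and 7.08. Mcm3 rose by 1.82 and Tpx2 by 2.08, the latter from a control mean under the lower quartile. Tumour 1 was thus lowest for this list as it was for Myc, highest for Klf6, and between tumours 2 and 3 for Jun and Egr1. Without control 1 or control 2, 0 of the 19 were called, 3 without tumour 2 and 16 without tumour 1.

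Genes of the heat shock response, mostly chaperones, had 0 calls among 9 measured (limma; 2 higher and 1 lower at an unadjusted p under 0.05), with a median of 0.36. Hsp90aa1 stood at 0.91 (limma adjusted p = 0.0642), Hspb8 at 0.36 (0.108), Hspa8 at 0.27 (0.244) and Dnaja1 at -0.42 (0.127). Without tumour 1 or tumour 3, 1 was called risen.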
